A study of Mus musculus with 4 samples.

Results

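The netrin, Slit, Dcc and Robo genes examined here are 10 genes that guide commissural axons, read from arrays of mouse neural tube cells. They were taken from a given list of ligands and receptors, as the probe sets whose only platform gene symbol was Ntn1, Slit1, Slit2, Slit3, Dcc, Neo1, Unc5c, Robo1, Robo2 or Robo3. These 10 of the 18193 genes on the array had 24 of the 45037 probe sets, and each gene was represented by its brightest probe set by the mean over all 4 arrays. Of the 10 genes, 9 had a mean signal at or above 31.7, the 40th percentile of all probe sets, and were tested among 12740 genes. Robo2 did not reach that level.

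Expression was measured in 2 populations of GFP-sorted cells from mouse embryos at E10.5 (embryonic day), both from mixed B6SJLF1 and ICR strains. Atoh1-GFP cells came from the Atoh1BAC-GFP line, in which GFP placed in a bacterial artificial chromosome labels cells derived from Atoh1-expressing ones, the lineage of dorsal interneuron 1 (dI1). The dNeurog1-GFP cells came from a line in which a Neurog1 enhancer drives GFP in the dorsal neural tube, where dorsal interneuron 2 (dI2) forms. Each population has 2 arrays, given as biological replicates, and the arrays are read here as the GFP-positive side of the sort, which the labels do not state outright. The neural tube was taken between the limb levels, and how many embryos went into an array is not known here. Since GFP protein can outlast the activity of the sequence that drives it, each sort may hold both dividing cells and young neurons.

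Commissural neurons of the dorsal spinal cord send their axons ventrally to the floor plate and across the midline. Netrin 1 attracts them through Dcc, while the Slit proteins repel axons through Robo1 and Robo2, and Robo3 keeps axons from being repelled before they cross. Both dI1 and dI2 give rise to commissural neurons, and dI1 also forms a group that stays on its own side.

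The deposited MAS5 signals, which are probe set intensities on a linear scale, had been scaled to a trimmed mean of 250 on both replicate 1 arrays and 500 on both replicate 2 arrays. All signals below were rescaled to a trimmed mean of 250 on every array. A log2 difference is the Atoh1-GFP minus the dNeurog1-GFP mean of log2(signal + 32), which understates the change of dim genes. The targets were shared by replicate number, with 1 array of each population under each number. No label names the number as a batch or a pairing. Each test was run both as a plain comparison and with a block for the replicate number, and differences are also shown for each replicate number alone. Most lineage markers followed the labels. With the block, all 5 dI1 markers, among them Atoh1, rose and 4 of 6 dI2 markers, among them Neurog1, fell in Atoh1-GFP cells. Without it, 4 dI1 markers were higher and 3 dI2 markers were lower. With the block Foxd3 and Foxp2, the remaining dI2 markers, were not called, at -1.04 and 0.12. Atoh1 and Neurog1 give the sorts their names, so they differ by design. Atoh1 still had 886 and 931 in dNeurog1-GFP cells, against 10710 and 9837 in Atoh1-GFP cells. A gene is called where limma's Benjamini-Hochberg adjusted p over all tested genes is under 0.05.

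Robo3 and Slit2 are shown by their promoters because, with the block, they were called in opposite directions, and their windows, as seen after the values were known, differ in the motifs that the dorsal transcription factors are known to read. The windows are the 250 bases before the annotated start, from RefSeq on GRCm38.p6, at chr9:37433176-37433425 on the minus strand for Robo3 and chr5:47982905-47983154 on the plus strand for Slit2. Capitals mark TAATTA, a core that LIM homeodomain proteins such as Lhx2 and Lhx9 bind.
Robo3: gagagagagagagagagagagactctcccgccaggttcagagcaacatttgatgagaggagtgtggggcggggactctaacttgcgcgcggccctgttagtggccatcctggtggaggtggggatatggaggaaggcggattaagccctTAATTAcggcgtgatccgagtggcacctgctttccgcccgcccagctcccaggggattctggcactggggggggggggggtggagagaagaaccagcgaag
Slit2: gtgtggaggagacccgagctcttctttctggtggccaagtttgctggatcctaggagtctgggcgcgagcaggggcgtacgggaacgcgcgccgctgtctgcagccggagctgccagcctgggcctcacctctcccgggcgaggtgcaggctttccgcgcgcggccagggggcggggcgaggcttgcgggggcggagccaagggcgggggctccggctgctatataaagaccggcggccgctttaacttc
TAATTA began 101 bases before the Robo3 start and was absent from the Slit2 window. Both strands were searched, and TAATTA was found in 4.84% of 32851 such windows of the genome. The E-boxes CAGCTG and CAGATG, which basic helix-loop-helix proteins such as Atoh1 and Neurog1 can bind, were in neither window, against 13% and 14.4% of all windows. The general E-box CANNTG, which includes both, was found at 205 and 78 bases before the Robo3 start and was absent from the Slit2 window, against 66.2% of all windows. RefSeq windows were held for 7 of the 10 genes. Of the genes called with the block, Ntn1, Dcc and Slit1 had none, so only Robo3 and Slit2 could be searched. With the general E-box set aside, Robo2, in 1 of its 3 windows, was the only other with any of these motifs (CAGCTG). The general E-box was also found at 164, 152 and 135 bases before the Robo1 start. Each Robo2 window held it as well, at 18, 28 and 37 bases before the start. The general E-box therefore did not set Robo3 apart from Robo1 and Robo2. A match is a string of letters and not a measured binding site, and both genes have RefSeq bounds that reach beyond these starts.

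Over the whole list, receptors and ligands of crossing axons went both ways. With the replicate block 5 of the 9 tested genes were called, against 6.75% of all tested genes. Higher in Atoh1-GFP cells were 3 (Dcc, Robo3 and Slit1), beside 2.86% of all tested genes, and lower were 2 (Ntn1 and Slit2), beside 3.89%. Without the block 0 of the 9 were called by limma, against 0.22% of all tested genes (0.126% higher and 0.0942% lower). In that same test 5 of the 9 had an unadjusted p under 0.05, beside 1093 of all 12740 tested genes. On simulated arrays of this size the block model made more false calls than its threshold allows, so its calls, here and below, are less certain than their adjusted p-values state. With the block but no low-signal filter, 2 of the 5 calls remained, Ntn1 and Dcc. When all probe sets of a gene that passed the filter were averaged, Robo3 and Slit1 were no longer called. The median log2 difference of the 9 genes was 0.26 (0.31 within replicate 1 and -0.02 within replicate 2), beside 0.01 over all tested genes. In 6 of the 9 genes the 2 Atoh1-GFP arrays did not overlap the 2 dNeurog1-GFP arrays, where 34.7% of all tested genes had no overlap (15.9% higher and 18.8% lower). Counting Slit3, in 8 of the 9 the difference had the same sign within both replicate numbers, as it did in 67% of all tested genes (33.3% higher and 33.7% lower). Slit3 passed the filter through 1 dNeurog1-GFP array and differed by -0.0016 within replicate 1, so it adds no support to that count. On the log2(signal + 32) scale Ntn1, Dcc and Slit1 differed by at least 1.5-fold in 1 direction within both, and 2.9% of all tested genes did so upward and 3.6% downward.

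**Figure D1:**
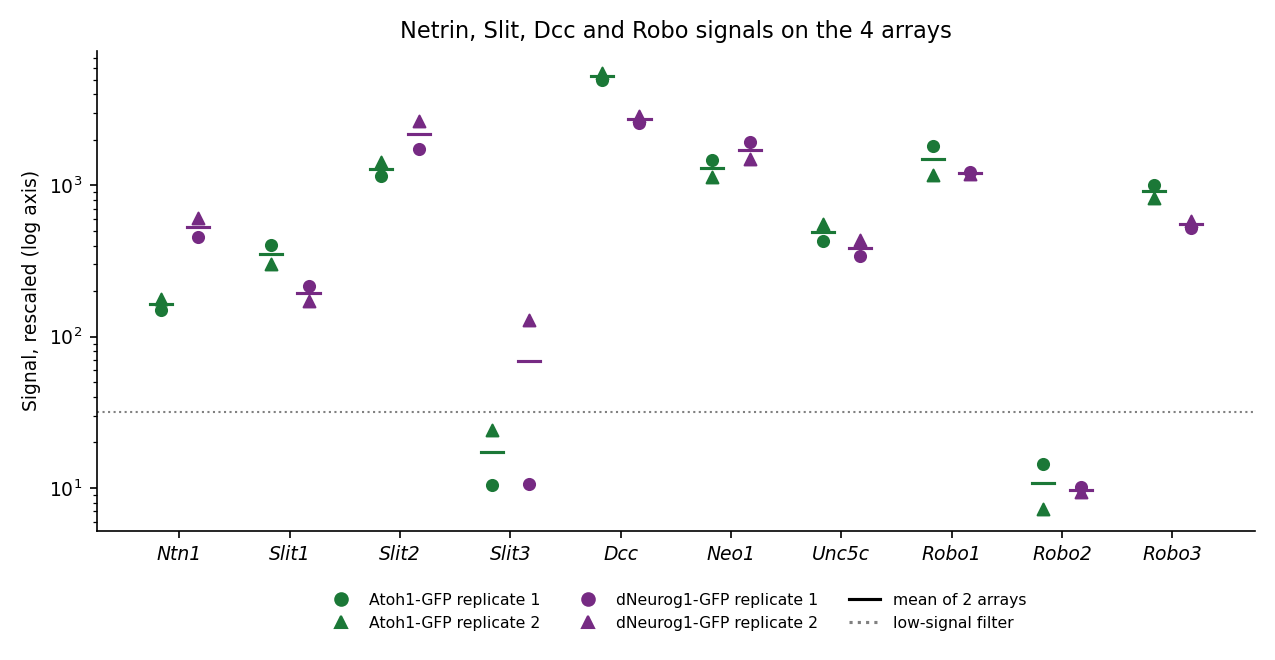
Rescaled signal (log axis) of the brightest probe set of each gene on the 2 Atoh1-GFP and 2 dNeurog1-GFP arrays, with bars at the mean of the 2 arrays and a dotted line at the low-signal filter of 31.7. Ntn1 and Slit2 are lower and Dcc, Robo3 and Slit1 higher in both Atoh1-GFP arrays than in both dNeurog1-GFP arrays, and heights of different genes cannot be compared because each has its own probes.

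**Figure D2:**
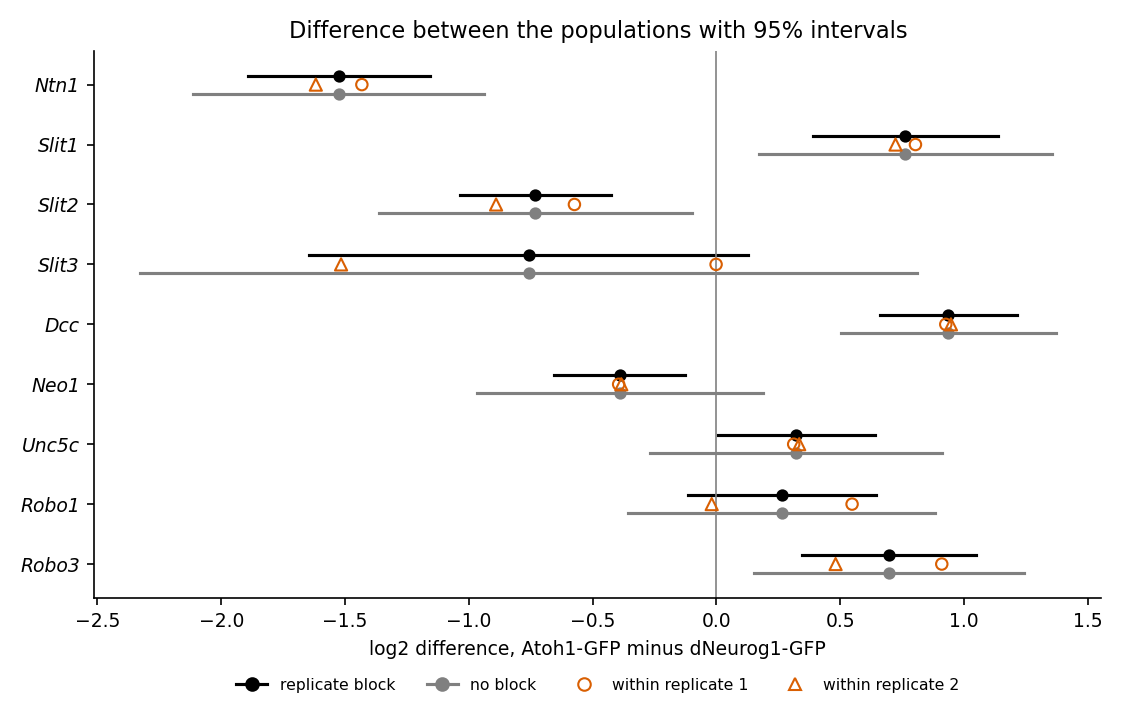
Log2 difference, Atoh1-GFP minus dNeurog1-GFP, of the 9 tested genes, with 95% intervals from the model with the replicate block (black) and without it (grey), and the differences within replicate 1 (open circles) and replicate 2 (open triangles). The interval with the block lies wholly on 1 side of 0 for Ntn1, Slit1, Slit2, Dcc, Neo1, Unc5c and Robo3, of which Neo1 and Unc5c missed the threshold after adjustment.

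Among the ligands, Ntn1 had the largest difference. Ntn1, the diffusible attractant made by the floor plate and by ventricular zone progenitors, gave 149 and 178 in Atoh1-GFP cells, against 456 and 613 in dNeurog1-GFP cells. Both Atoh1-GFP arrays were low and both dNeurog1-GFP arrays high, by 3.06-fold within replicate 1 and 3.44-fold within replicate 2. The log2 difference was -1.52 (standard error 0.15 with the block, limma adjusted p = 0.0056; 0.25 and adjusted p = 0.087 without it), and 60 of the 12740 genes had a more negative one. In sorted cells, fewer cells that express a gene and less RNA per cell cannot be told apart. A dimmer probe set of Ntn1, below the low-signal filter, had 47.1 and 15.4 in Atoh1-GFP cells, against 39.7 and 7.69 in dNeurog1-GFP cells, so the result rests on 1 probe set.

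Among 10 ventricular zone progenitor markers the block model called 5 as lower in Atoh1-GFP cells, as Ntn1 was, and 0 as higher, beside 3.89% and 2.86% of all tested genes. Without the block 0 were called. The summed signal of the 10 was 18220 to 22390 in Atoh1-GFP cells, against 23560 to 32490 in dNeurog1-GFP cells. The 5 were Sox1, Sox3, Pax6, Hes1 and Fabp7. The other 5 were not called, with log2 differences of 0.40 for Nes, -0.049 for Vim, -0.11 for Sox2, -0.40 for Notch1 and -0.65 for Hes5. Floor plate markers did not follow the same order, with summed signals of 522 to 736 in Atoh1-GFP cells, against 528 to 739 in dNeurog1-GFP cells over 9 genes. Of the 7 floor plate markers tested, Foxa1 alone was called with the block, as higher in Atoh1-GFP cells (log2 difference 1.01), beside 2.86% of all tested genes. Without the block none was. Of the others, Shh had 0.60 (adjusted p = 0.16 with the block), Foxa2 0.51, Sulf1 0.29 and Spon1 -0.13. In the direction of Ntn1, Nkx6-1 had the largest difference of the list at -1.25 (adjusted p = 0.087) and Lmx1b had -0.51 (adjusted p = 0.19). No marker was listed at 0, and Corin and Ferd3l were below the low-signal filter. The part of the progenitor markers in the Ntn1 difference was not tested.

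The Slit genes, which encode the repellents of the midline, did not move together. Slit1 had 402 and 304 in Atoh1-GFP cells, against 217 and 172 in dNeurog1-GFP cells. Both Atoh1-GFP arrays were higher, by 1.86-fold within replicate 1 and 1.77-fold within replicate 2. The log2 difference was 0.76 (standard error 0.15, adjusted p = 0.039 with the block; 0.25 and adjusted p = 0.40 without it). Its other probe set had 128 and 355 in Atoh1-GFP cells, against 130 and 123 in dNeurog1-GFP cells. There the Atoh1-GFP replicate 2 array alone stood apart, and the probe set missed the threshold (log2 difference 0.66, adjusted p = 0.29 with the block).

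Slit2 had 1160 and 1420 in Atoh1-GFP cells, against 1742 and 2658 in dNeurog1-GFP cells. The groups did not overlap, and the dNeurog1-GFP replicate 2 array was the highest of the 4. The log2 difference was -0.73 (standard error 0.13, adjusted p = 0.026 with the block; 0.27 and adjusted p = 0.47 without it), with -0.57 within replicate 1 and -0.89 within replicate 2. Of its other probe sets, 1 had 181 and 202 in Atoh1-GFP cells, against 307 and 749 in dNeurog1-GFP cells (log2 difference -1.21, adjusted p = 0.043 with the block). The other had 59.2 and 35.0 in Atoh1-GFP cells, against 95.1 and 138 in dNeurog1-GFP cells (-0.91, adjusted p = 0.10). All 3 probe sets of Slit2 were lower in both Atoh1-GFP arrays, with the larger gap within replicate 2. Without the dNeurog1-GFP replicate 2 array, and with no block, the log2 difference of Slit2 was -0.43.

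Slit3 had 10.53 and 23.99 in Atoh1-GFP cells, against 10.58 and 128.1 in dNeurog1-GFP cells. The dNeurog1-GFP replicate 2 array alone was above the low-signal level, and it alone carried the gene past the filter. The log2 difference was -0.76 with a 95% interval from -1.64 to 0.13 with the block (adjusted p = 0.28), and without that array it was 0.20. Slit3 has 1 probe set.

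Markers of motor neurons, which are known to express Slit genes, had their highest summed signal on the dNeurog1-GFP replicate 2 array, as Slit2 and Slit3 did. The sum of 8 motor neuron and motor neuron progenitor markers was 487 to 765 in Atoh1-GFP cells, against 1625 to 4345 in dNeurog1-GFP cells. Isl1, which dI3 neurons also express, made up most of the dNeurog1-GFP sums, at 973 on the replicate 1 array and 2581 on the replicate 2 array. The list's median log2 difference was -0.57 between the replicate 1 arrays and -2.31 between the replicate 2 arrays. With the block 3 of the 8 were called, all lower in Atoh1-GFP cells, beside 3.89% of all tested genes, and without it 0 were called. The 3 were Isl1, Lhx4 and Olig2. Lhx4 and Olig2 were below 31.7 on both Atoh1-GFP arrays and passed the low-signal filter only through the dNeurog1-GFP arrays, so their calls add no support. The other 5 were not called. Of these Mnx1, a defining motor neuron factor, had 42.6 and 21.8 in Atoh1-GFP cells, against 82.1 and 455 in dNeurog1-GFP cells. Lhx3 and Isl2 had log2 differences of 0.0093 and 0.064 within replicate 1, and of -1.905 and -1.551 within replicate 2. Chat and Slc18a3 had -0.15 and -0.53 within replicate 1, and -1.505 and -1.704 within replicate 2. No marker of the list was at 0. Mesenchyme, another known source of Slit2 and Slit3, had 0 of 8 markers called with the block, against 6.75% of all tested genes. So few markers cannot tell 0 from that share. Their summed signal overlapped between the populations, at 2155 to 3152 in Atoh1-GFP cells, against 1478 to 3295 in dNeurog1-GFP cells. The part of these cells in the Slit values was not tested.

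**Figure D3:**
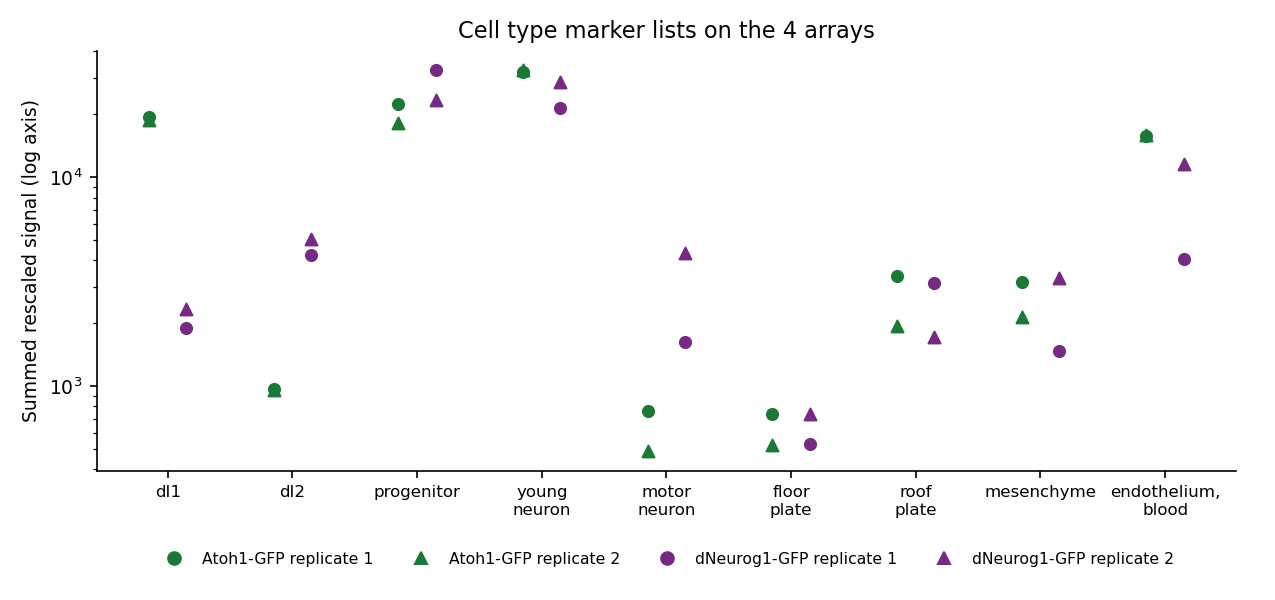
Summed rescaled signal (log axis) of each cell type marker list on the 2 Atoh1-GFP arrays and the 2 dNeurog1-GFP arrays. The motor neuron sum is highest on the dNeurog1-GFP replicate 2 array at 4345, the progenitor sums are higher in dNeurog1-GFP cells, and the floor plate sums overlap between the populations.

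Among the receptors of netrin, Dcc was higher in Atoh1-GFP cells. Dcc, the receptor through which netrin 1 attracts commissural axons, had 4971 and 5570 in Atoh1-GFP cells, against 2601 and 2874 in dNeurog1-GFP cells. The groups were far apart relative to the gap between replicates, with 1.91-fold within replicate 1 and 1.94-fold within replicate 2. The log2 difference was 0.94 (standard error 0.11, adjusted p = 0.0099 with the block; 0.18 and adjusted p = 0.13 without it), and 233 of the 12740 genes had a larger one. A second probe set had 3130 and 1780 in Atoh1-GFP cells, against 1500 and 829 in dNeurog1-GFP cells. It was again higher in both Atoh1-GFP arrays (log2 difference 1.06, adjusted p = 0.0056 with the block). The third and dimmest had 101 and 44.1 in Atoh1-GFP cells, against 87.2 and 37.1 in dNeurog1-GFP cells, and at 0.15 on the log2 scale it missed the threshold (adjusted p = 0.74 with the block).

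Neo1, or neogenin, the close relative of Dcc that binds netrins and the repulsive guidance molecules, went the other way by a smaller amount. It had 1475 and 1144 in Atoh1-GFP cells, against 1950 and 1503 in dNeurog1-GFP cells. The ratio was even, at 1.32-fold and 1.31-fold lower in Atoh1-GFP cells within replicates 1 and 2. The log2 difference of -0.39 missed the threshold (95% interval -0.65 to -0.13 and adjusted p = 0.096 with the block; -0.97 to 0.19 and adjusted p = 0.85 without it). The next brightest Neo1 probe set had -0.38, and the others that passed the filter had -0.09 and -0.0014. After quantile normalization, with the block, Neo1 passed (adjusted p = 0.037).

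Unc5c, a netrin receptor that mediates repulsion, had 432 and 556 in Atoh1-GFP cells, against 342 and 434 in dNeurog1-GFP cells. The groups overlapped by a narrow margin, although each Atoh1-GFP array exceeded the dNeurog1-GFP array of its own number (1.26-fold and 1.28-fold). Its log2 difference of 0.32 was not called (95% interval 0.0044 to 0.64 and adjusted p = 0.22 with the block; -0.27 to 0.91 without it). The second Unc5c probe set differed by 0.31 (adjusted p = 0.46 with the block).

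The Robo receptors differed in how they behaved. Robo3, the receptor that lets commissural axons reach the midline, had 1014 and 828 in Atoh1-GFP cells, against 525 and 584 in dNeurog1-GFP cells. Both Atoh1-GFP arrays were higher, by 1.93-fold within replicate 1 and 1.42-fold within replicate 2. The log2 difference was 0.70 (standard error 0.15, adjusted p = 0.043 with the block; 0.23 and adjusted p = 0.40 without it). Its other probe set, at 77.6 and 33.2 in Atoh1-GFP cells, against 51.1 and 37.7 in dNeurog1-GFP cells, overlapped between the populations and differed by 0.15 on the log2 scale (adjusted p = 0.77).

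Robo1, a Slit receptor of axons that have crossed, had 1814 and 1177 in Atoh1-GFP cells, against 1231 and 1194 in dNeurog1-GFP cells. The Atoh1-GFP replicate 1 array alone was high, and the other 3 arrays lay together. Its log2 difference was 0.26 (95% interval -0.12 to 0.65 and adjusted p = 0.38 with the block), with 0.55 within replicate 1 and -0.019 within replicate 2. Without the Atoh1-GFP replicate 1 array it was -0.041. Robo2, the partner of Robo1 in Slit repulsion, had 14.3 and 7.26 in Atoh1-GFP cells, against 10.1 and 9.36 in dNeurog1-GFP cells, on its only probe set. These values are below the low-signal level on every array and give no order between the populations.

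Markers of young neurons, set beside Dcc and Robo3 as genes of growing axons, differed in both directions. The block model called 4 of 10 as higher in Atoh1-GFP cells, namely Tubb3, Dcx, Elavl3 and Map2, beside 2.86% of all tested genes, and 1 as lower, the neurofilament gene Nefm, beside 3.89%. Without the block 0 were called. Of the 5 not called, Nefl and Gap43 had -0.71 and -0.58, and Stmn2, Elavl4 and Ina had 0.50, 0.56 and 0.29. The summed signal of all 10 was 31810 to 32680 in Atoh1-GFP cells, against 21570 to 28470 in dNeurog1-GFP cells. No marker of the list was at 0. The part of neuronal content in the receptor differences was not tested.

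**Figure D4:**
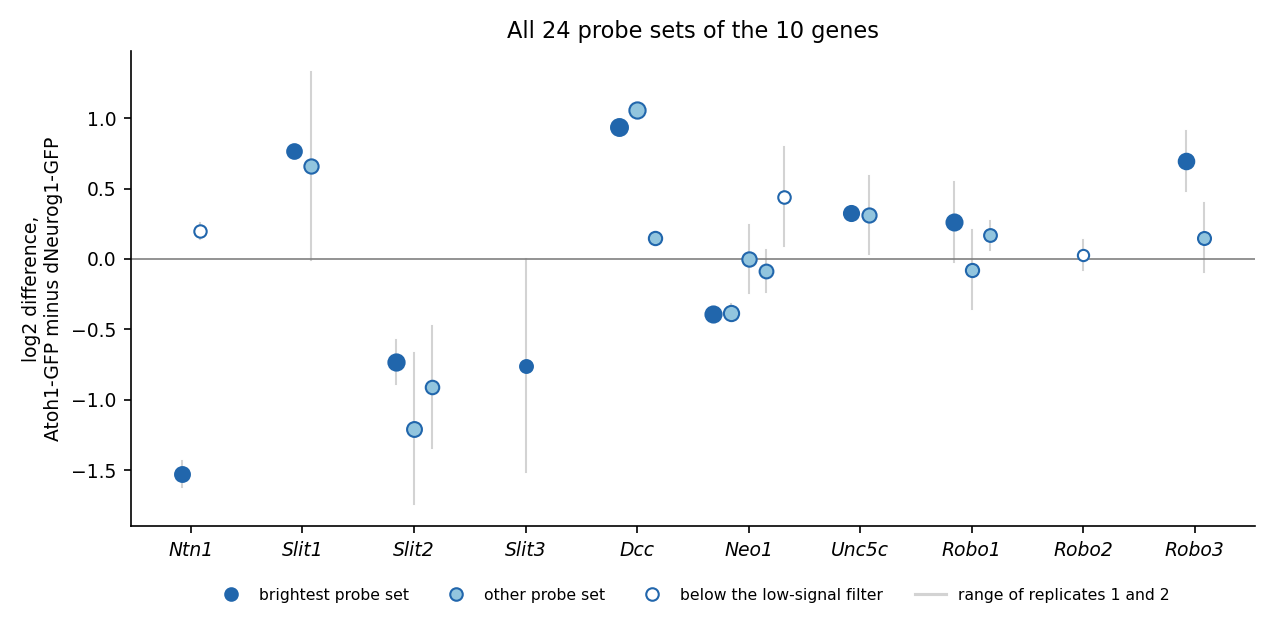
Log2 difference, Atoh1-GFP minus dNeurog1-GFP, of all 24 probe sets of the 10 genes, drawn from brightest to dimmest within a gene, with point size rising with the mean signal and grey lines joining the values within replicates 1 and 2. The 3 Slit2 probe sets lie below 0 and the 3 Dcc probe sets above it, while the Ntn1, Neo1 and Robo1 probe sets lie on both sides of 0.

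Related guidance genes were taken from 4 lists, of other family members with co-receptors, of cytoplasmic effectors, of Sonic hedgehog guidance genes and of commissural axon genes. With the block 7 of the 66 tested rose and 4 fell in Atoh1-GFP cells, which is 16.7% called, against 6.75% of all tested genes. Without it 2 were called, both higher, and the median log2 difference of the 66 was 0.10, beside 0.01 over all tested genes. Lhx2 and Lhx9 were among the 7, and Lhx2 was among the 2. Lhx2 and Lhx9 mark dI1 and differ between the sorts by design, so their calls add no support.

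Of other family members and co-receptors, 2 of 19 were higher with the block and 1 lower, beside 2.86% and 3.89% of all tested genes. Draxin, a secreted repellent that binds Dcc, had 1891 and 1914 in Atoh1-GFP cells, against 1237 and 928 in dNeurog1-GFP cells (log2 difference 0.81, adjusted p = 0.025 with the block). Rgmb, a ligand of Neo1, had 1689 and 1664 in Atoh1-GFP cells, against 464 and 849 in dNeurog1-GFP cells (1.37, adjusted p = 0.017). Thus 2 ligands of these receptors were higher in the cells in which Ntn1 was lower. Unc5a, a repulsive netrin receptor like Unc5c, had 101 and 63.2 in Atoh1-GFP cells, against 289 and 154 in dNeurog1-GFP cells (-1.12, adjusted p = 0.025). Dscam, another netrin receptor, differed by 0.82 and was not called (adjusted p = 0.18), and Nell2, a ligand of Robo3, had 0.07 (adjusted p = 0.88).

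Of 33 tested cytoplasmic and processing genes, 1 was called with the block, at 3.03%, against 6.75% of all tested genes. It was Trim67, a ubiquitin ligase known to bind Dcc, with 320 and 178 in Atoh1-GFP cells, against 141 and 95.9 in dNeurog1-GFP cells (log2 difference 0.87, adjusted p = 0.044 with the block). Nck2, an adaptor that binds Dcc, and Srgap3, a GTPase activator downstream of Robo, had 0.48 and 0.37, with adjusted p = 0.068 and 0.11. The median of the list was 0.10.

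Sonic hedgehog is the other attractant of the floor plate. With the block, 3 of the 6 tested genes of its guidance list were lower in Atoh1-GFP cells, beside 3.89% of all tested genes. Called as higher were 0, beside 2.86%. Boc, the Sonic hedgehog receptor on commissural axons, had 632 and 379 in Atoh1-GFP cells, against 1451 and 791 in dNeurog1-GFP cells (log2 difference -1.08, adjusted p = 0.0079 with the block). Gas1, a co-receptor, had 1948 and 1683 in Atoh1-GFP cells, against 4239 and 3879 in dNeurog1-GFP cells (-1.15, adjusted p = 0.0053). Boc was thus lower in the cells in which Dcc was higher. Ptch1, a receptor and target gene of the pathway, had -0.73 (adjusted p = 0.023), while Cdon and Smo had -0.22 and -0.31 and were not called. Shh itself went the other way, at 0.60, and was not called (adjusted p = 0.16 with the block).

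Of the 8 commissural axon genes, 4 were higher with the block and 0 lower, beside 2.86% and 3.89% of all tested genes. Cntn2, an adhesion molecule of commissural axons before they cross, had 3913 and 4052 in Atoh1-GFP cells, against 888 and 1143 in dNeurog1-GFP cells (log2 difference 1.95, adjusted p = 0.0019 with the block and 0.035 without it). Alcam, another adhesion molecule, had 0.95 (adjusted p = 0.039 with the block). Lhx2 and Lhx9, LIM homeodomain factors reported to act upstream of Robo3 in dI1 neurons, had 3.09 and 2.63, so they differed more than Robo3 did. They mark dI1 and differ between the sorts by design, so their calls add no support here. The other 4 genes were not called, with log2 differences of 0.40 for Nrcam, 0.28 for Zic2, -0.17 for L1cam and -0.35 for Cntn1.

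**Figure D5:**
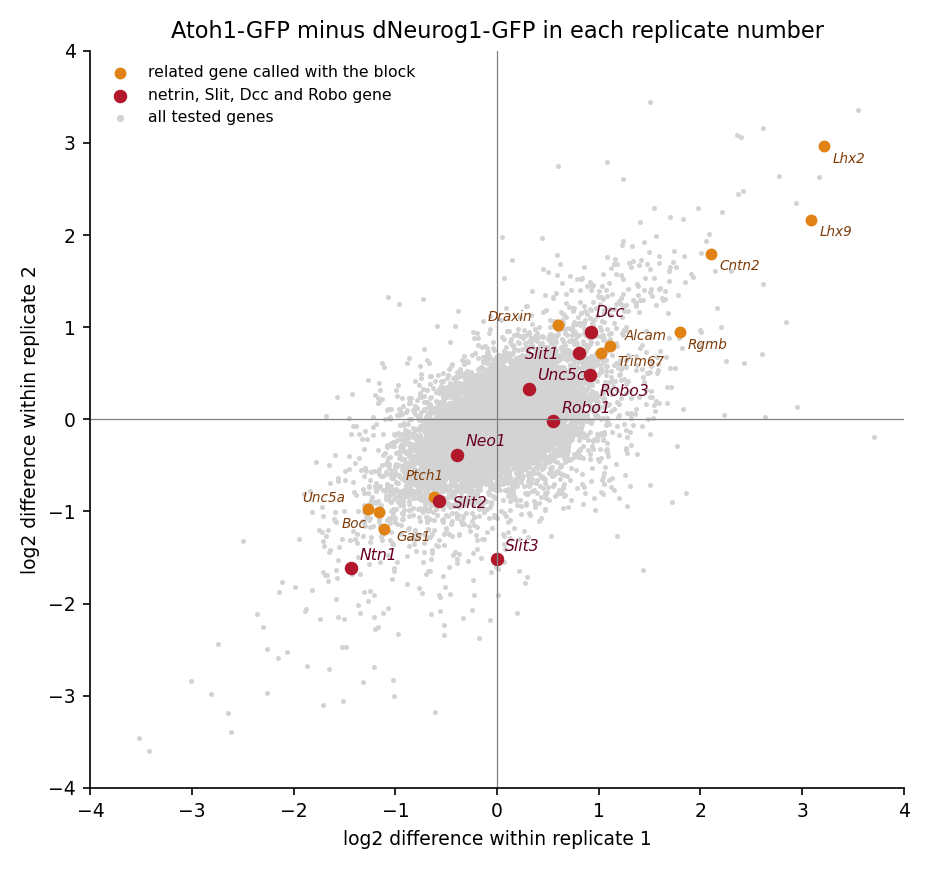
Log2 difference, Atoh1-GFP minus dNeurog1-GFP, within replicate 1 (horizontal axis) and within replicate 2 (vertical axis) for all 12740 tested genes (grey), the 9 tested netrin, Slit, Dcc and Robo genes (red) and the related genes called with the block (orange). Dcc, at 0.93 and 0.95, and Ntn1, at -1.43 and -1.62, lie near the diagonal, Slit3 lies off it at -0.0016 and -1.52, and Robo1 at 0.55 and -0.02.

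The genes most like each member over the 4 arrays were found by the Euclidean distance between log2 values centred on each gene's own mean. For Ntn1 they were Fzd7, Pax6 and Cdc6, at distances of 0.11, 0.14 and 0.15. Pax6 is on the progenitor list above. For Dcc they were Sema6c, Ypel4 and Nkain4, at 0.063, 0.073 and 0.084. For Robo3 they were E030024N20Rik, Filip1 and Rtn4r, at 0.038, 0.038 and 0.040, and for Slit2 Mecom, Umps and Gsdme, at 0.075, 0.10 and 0.11. Slit1 lay nearest to Ano10, Fgd6 and Scn8a (0.057, 0.082 and 0.096), Neo1 to Sqle, Smn1 and Papola (0.013, 0.038 and 0.044), and Unc5c to Clcn2, Smad1 and Asphd2 (0.015, 0.021 and 0.024). Slit3 had no gene as close, with Rbfox3, Marchf4 and Mreg at 0.33, 0.43 and 0.46. The nearest gene to Robo1 was Abl1, at 0.025, a kinase of the effector list, followed by Amer1 and Sgip1 at 0.049 and 0.050. With 4 arrays many genes lie this close, and the distances are a description only.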

How the data were processed

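The 4 samples are 1 Affymetrix mouse array each, 2 of Atoh1-GFP and 2 of dNeurog1-GFP cells. The deposited values are signal intensities on a linear scale, made with MAS5 per the submitters' processing notes. Detection calls were not used here. From the deposited intensities, each array was rescaled to one trimmed mean of 250 over 45101 probe sets (2% left out at each end), the 64 controls were dropped, and log2(signal + 32) was taken. Of 45037 probe sets, 34945 had 1 gene symbol, 932 several and 9160 none in the platform annotation; 34741 of the first matched RefSeq by gene identifier. The brightest probe set with 1 symbol and a mean at or above 31.7 stood for a gene. limma 3.58.1 in R 4.3.3 (lmFit, eBayes with an intensity trend) was fitted to 12740 genes, first with no block and then blocked on replicate number (2 and 1 residual degrees of freedom, so the spread shared across genes weighs heavily). On simulated arrays the effects were recovered without bias, but the block model made more false calls than an adjusted p of 0.05 allows. The model with no block made none and missed many changes. The simulated arrays kept the replicate-number differences of these data and took their noise from the block model. They therefore cannot show which model suits these arrays. Without the block, p-values measure the spread between the arrays of a population. With it, they measure how far the differences within the 2 replicate numbers disagree. Both also draw on the spread shared across genes. Nothing says that the samples came from separate embryos beyond the word biological, and 2 arrays per group limit the precision.

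The members, the lists, the rescaling and the motifs were chosen with earlier results of these data known. Genes named were all members and, of each related list, those called in either model, with up to 2 others for their role. For the effectors Abl1 is also named by likeness. All tested genes of the Sonic hedgehog and commissural axon lists are named. The mean of probe sets, other scalings, pseudocounts, no filter and leaving out each array were tried as alternatives.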

Additional observations from a re-analysis of the deposited data

How the results depend on the processing

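The replicate block decided the calls. With it the genes called went to 860 (365 up and 495 down in Atoh1-GFP cells) and the netrin, Slit, Dcc and Robo genes called to 5, against 28 (16 and 12) and 0 without it; all 28 were among the 860. No label states that equal numbers pair the samples; deviations of same-numbered arrays from their population means correlated at r = 0.67, a value that 2 replicates per group make equal for both pairs. Without the block, the genes called were 13 (1 and 12) as deposited, 18 (7 and 11) on one 75th percentile and 9 (4 and 5) with no filter, and leaving out 1 array gave 157 to 370 genes and 0 to 2 of the 9 members. Ntn1 passed without either Atoh1-GFP array or without dNeurog1-GFP replicate 1 (adjusted p = 0.0010 to 0.0036), and Dcc without Atoh1-GFP replicate 1 (0.021). Leaving out 1 array in the block model leaves no residual degrees of freedom and was not run.

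With the block, quantile normalization gave 1924 genes and 18 related genes. Without the filter the counts were 328 genes, 2 members and 5 related genes, with more dim genes tested. Averaging the probe sets of a gene that passed the filter gave 3 members. Ntn1 and Dcc kept their direction and their call in all 7 other scalings, pseudocounts, filter and averaging settings (adjusted p up to 0.022 and 0.033). For Ntn1 the averaging was no check, because only 1 of its probe sets passed the filter. Slit2 lost its call without the filter (adjusted p = 0.065), Robo3 and Slit1 without it (0.096 and 0.085) and under averaging (0.19 and 0.085). The direction turned for Robo1 without Atoh1-GFP replicate 1 and on 1 of its other probe sets (-0.075 with and without the block), and for Slit3 without dNeurog1-GFP replicate 2; with 1 array left out Robo1 ran from -0.041 to 0.57 and Slit3 from -1.71 to 0.20. The cause was not tested. The median of all genes moved by less than 0.1 under every scaling tried. Detection calls were not used, so signals near the filter, such as those of Slit3 and Robo2, have no stated floor.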
